A study of Mus musculus with 12 samples.

Results

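The 10 genes of apolipoproteins and lipoprotein assembly described here were followed in whole livers of mice that lack YAP1: *Apoa1*, *Apoa2*, *Apoa4*, *Apoa5*, *Apob*, *Apoc2*, *Apoc3*, *Apoe*, *Mttp* and *Lipc*. They were taken by name, and all 10 were found among the 41743 genes of both tables. RNA from 12 female mice aged 3 to 4 months was sequenced, in 4 groups of 3. In the YAP1 KO mice, both floxed copies of *Yap1* were deleted with *Foxa3*-Cre on a C57BL/6 background, and these mice also carried a Cre-dependent EYFP reporter at the ROSA locus. In the YKTH mice, *Yap1* was deleted with the same Cre together with 1 copy of *Wwtr1*, which encodes TAZ, on a mixed C57BL/6 and FVB background. Their floxed copies came from a separate FVB line, so the source of floxed *Yap1* also differs between the models. Each model was compared with its own WT littermates, here WT (C57BL/6) and WT (mixed), and all mice ate standard chow. *Foxa3*-Cre acts before birth in the foregut endoderm, from which hepatocytes and the cells of the bile ducts arise. Which cells of these livers carry the deletion was not measured. The paper proposes, from data not shown, that this Cre line also affects developing kidneys, which come from mesoderm. Livers of both models have no bile ducts inside the organ.

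Lipoproteins carry lipid through blood, and the liver secretes most of them. ApoB is the structural protein of very low density lipoproteins (VLDL), and the microsomal triglyceride transfer protein, encoded by *Mttp*, loads lipid onto it in the endoplasmic reticulum. ApoA1 and ApoA2 are the main proteins of high density lipoproteins (HDL), apoC2 activates and apoC3 restrains lipoprotein lipase, apoE binds receptors that clear remnants, and hepatic lipase, encoded by *Lipc*, trims remnants and HDL.

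Values are TPM, the share of transcripts per gene after correction for length, scaled to the same total in every library, so that levels of different genes can be set side by side. Every library sums to 1000000 TPM, so the number of reads counted in each liver cannot be read from these values. For tests, TPM were divided by a factor for each library that centres the bulk of genes, 1 was added, and log2 was taken. Fold changes from limma are differences on that scale, with a standard error (SE), and a gene was called when its Benjamini-Hochberg adjusted p over all genes was under 0.05. The centring matters here. Without it, the median of all tested genes lay at 0.28 in YAP1 KO and 0.24 in YKTH mice on the log2 scale, against -0.04 in both with it. Changes are therefore relative to the bulk of genes, and a gene with equal TPM in both groups has a value below 0. Nothing in the sources says that mice of a group came from separate litters, so p-values rest on the spread between these mice. In limma, the variance of each gene was also drawn toward a trend over all genes.

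*Yap1* averaged 2.44 ± 1.12 TPM (SD, n = 3) in YAP1 KO against 29.7 ± 1.29 in WT livers, and 9.77 ± 1.51 in YKTH against 32.2 ± 1.11 in WT livers. *Wwtr1* had more TPM without overlap in both models, at 14.5 ± 1.85 TPM in YAP1 KO against 6.46 ± 0.32 in WT livers. In YKTH livers it was at 12.4 ± 1.41 TPM against 8.11 ± 0.34 in WT (mixed) livers. The YKTH rise was called by limma without scaling (0.56, adjusted p = 0.00779) but not in the main setting. The *Wwtr1* level in whole liver thus does not check the loss of 1 copy. Cell type markers also moved. Of 15 Kupffer cell and macrophage markers, 14 were called higher in each model. The summed level of the 15 was 1527 to 2385 TPM in YAP1 KO against 351 to 438 in WT livers. In YKTH livers it was 1662 to 1833 TPM against 312 to 658 in WT livers. Part of that sum is *Cd9* (from 23.6 to 299 and from 26.0 to 309 mean TPM) and *Spp1* (from 40.0 to 450 and from 45.4 to 154). *Timd4* went from 5.57 to 5.69 and from 6.65 to 10.8 mean TPM, with overlap in both models. Of 11 stellate cell and fibroblast markers, 6 were higher and 1 lower in YAP1 KO, and 7 were higher in YKTH livers. Of 9 hepatocyte markers measured, 4 were lower in YAP1 KO and 3 in YKTH livers, and their sum was 73017 to 79982 TPM against 87371 to 100684, and 69858 to 84484 against 83416 to 102135. *Alb*, which encodes albumin, carries most of that sum. *Ambp* had more TPM in both models without overlap (3353 to 4993 and 3325 to 4705 on average) and was not called. *Fgb* (1632 to 2333 and 1568 to 2250) and *Serpinc1* (829 to 1009 and 832 to 1044) also had more TPM without overlap. *Cps1* and *Hnf4a* had higher means with overlap, while *Alb*, *Ttr*, *Apoh* and *Asgr1* had lower means in both models. No hepatocyte marker was called higher in the main setting. Without scaling, 3 hepatocyte markers were called higher in YAP1 KO and 2 in YKTH livers, and 1 was called lower in YKTH livers. The part of cell composition in the results below was not tested, and in whole liver fewer cells of a type and less RNA per cell cannot be told apart. The summed level of 6 bile duct markers was low but higher without overlap in both models, at 22.2 to 33.4 TPM in YAP1 KO against 10.6 to 15.3 in WT livers, and at 22.5 to 25.1 in YKTH against 11.4 to 20.3 in WT livers. *Sox9*, called higher in both, rose from 1.57 to 12.6 and from 1.90 to 9.92 mean TPM.

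The 10 genes did not move as a group. In YAP1 KO livers 2 were higher (*Apoa4* and *Apoc2*), 3 were lower (*Apoa2*, *Apoc3* and *Lipc*) and 5 were not called, where 18.8% of all genes tested were higher and 18.0% lower. In YKTH livers the same 2 were higher and the same 3 were lower, *Mttp* was also called lower, and 4 were not called, where 19.2% of all genes were higher and 19.0% lower. The 5 genes called the same way in both models compare with 28.0% of the genes tested in both. The median change of the 10 was -0.26 in YAP1 KO and -0.27 in YKTH mice, against -0.04 over all genes in each.

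**Figure D1:**
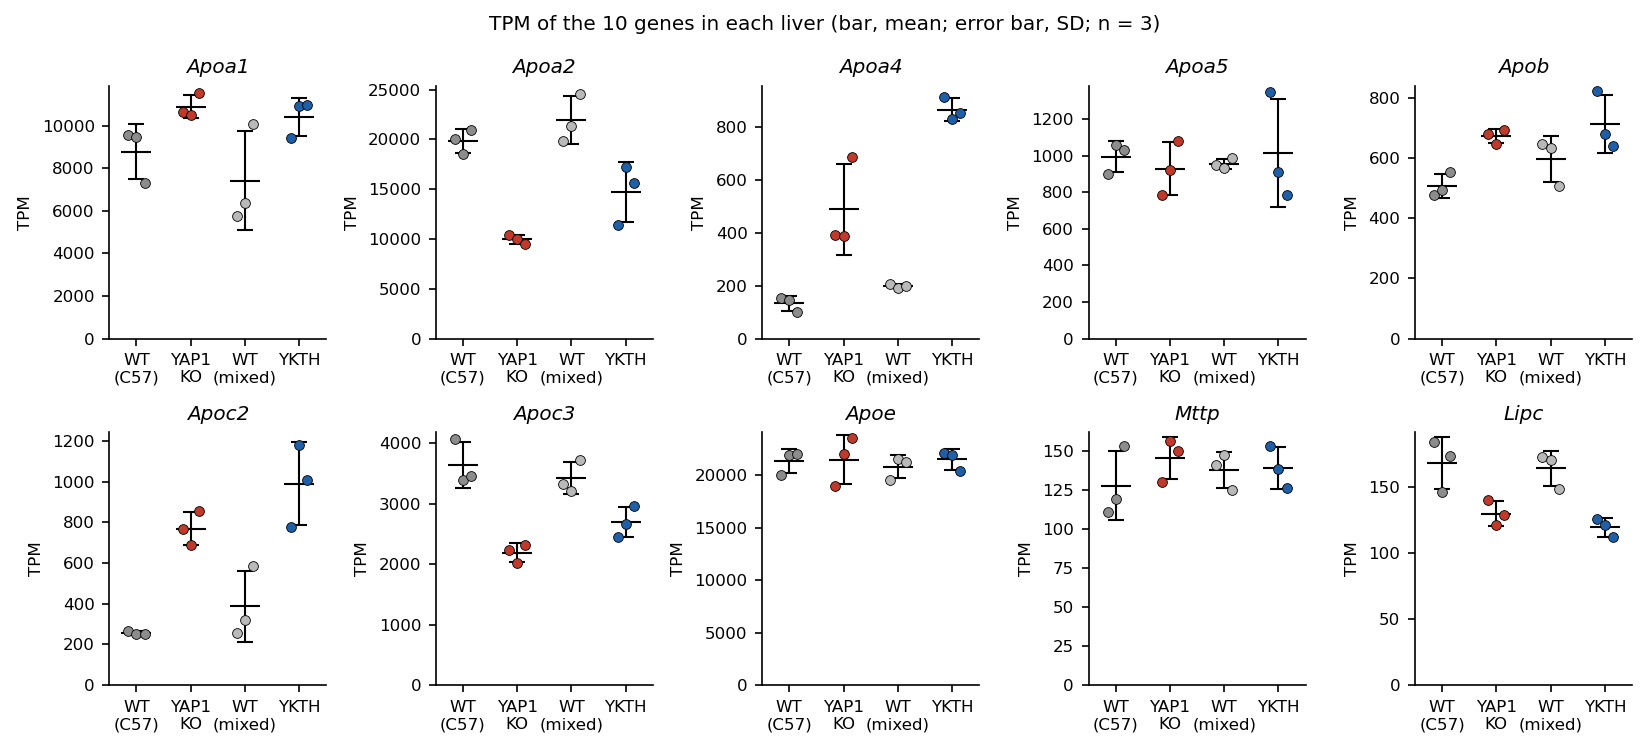
TPM (vertical axes, from 0) of each gene in each of the 12 livers. Points are mice, the short bar is the mean of 3 and the error bar the SD. *Apoa4* and *Apoc2* lie higher and *Apoa2*, *Apoc3* and *Lipc* lower in both models than in their own WT mice, without overlap.

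The regulatory sequences of the gene with the largest rise and the gene with the largest fall are shown because these genes moved in opposite directions in both models. RefSeq promoter windows on GRCm38.p6, of 250 bases before to 50 after a start, matched 9 of the 10 genes, and *Apoc3* had none. The RefSeq start used for *Mttp* lies 1550 bases inside the *Mttp* gene body given below, so that window is not upstream of the gene. Each window was searched on both strands for CAAAGTNCA (HNF4-type), TGTTTAC (FOX-type), GGAATG (TEAD-type, the family through which YAP1 and TAZ act on DNA) and for the core promoter motif TATAAA. The motifs do not overlap each other. They were chosen after the *Apoa4* and *Apoa2* windows had been read. Only bases upstream of both the RefSeq start and the start in the deposited tables are printed, 5′ to 3′, with motif matches in capitals. The *Apoa4* stretch is chr9:46240594-46240695 on the plus strand and the *Apoa2* stretch is chr1:171224804-171225053 on the plus strand.
Apoa4: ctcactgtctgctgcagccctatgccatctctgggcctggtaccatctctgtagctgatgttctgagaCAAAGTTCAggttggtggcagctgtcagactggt
Apoa2: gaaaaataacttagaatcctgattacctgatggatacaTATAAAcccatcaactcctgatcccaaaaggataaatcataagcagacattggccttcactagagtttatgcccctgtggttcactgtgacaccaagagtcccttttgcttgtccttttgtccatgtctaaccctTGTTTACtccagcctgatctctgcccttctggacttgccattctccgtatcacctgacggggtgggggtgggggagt
The *Apoa4* stretch holds 1 HNF4-type match, CAAAGTTCA, 182 bases before the RefSeq start, which itself lies 148 bases inside the *Apoa4* gene of the tables. The *Apoa2* stretch holds a TATAAA match 212 bases and a FOX-type match 77 bases before the start.

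The HNF4-type motif was in 1 of the 9 windows, that of *Apoa4*, and in 1.41% of 32851 promoter windows. The FOX-type motif was in the *Apoa2* window alone of the 9 and in 3.65% of all windows. The TEAD-type motif was found in the windows of *Apoa4* and *Lipc*, which moved in opposite directions, and in 14.7% of all windows. In *Apoa4* it starts 21 bases before the RefSeq start, outside the stretch printed. TATAAA was in the windows of *Apoa2*, *Apoa5* and *Apob* and in 13.6% of all. These matches describe letters and are not measured binding sites.

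*Apoa4* encodes an apolipoprotein of triglyceride-rich particles and HDL that is made mainly in intestine and, in mice, also in liver. Its levels were 390, 389 and 687 TPM in the YAP1 KO livers against 154, 144 and 102 in WT (C57BL/6) livers. In YKTH livers they were 913, 828 and 853 TPM against 206, 192 and 200 in WT (mixed) livers. Groups did not overlap in either model, LM191 stood above the other YAP1 KO mice, and the YKTH mice lay close together. The ratio of mean TPM was 3.67 in YAP1 KO and 4.34 in YKTH mice. The log2 fold change was 1.48 (SE 0.26, limma adjusted p = 0.00351) and 1.79 (SE 0.10, adjusted p = 1.07e-05). *Apoa4* remained called in all 15 alternative settings in each model, with fold changes from 1.18 to 1.84 and from 1.77 to 2.22. The summed level of 6 intestinal markers was lower in YAP1 KO (32.7 to 48.5 TPM) than in WT livers (98.2 to 109) and in YKTH (39.0 to 41.7) than in WT livers (101 to 112), and *Fabp2* made up most of it. Of the 2 intestinal markers tested, *Fabp2* and *Lgals4*, 2 were called lower in YAP1 KO and 1 in YKTH livers. *Lgals4* averaged 9.74 against 16.3 TPM in YAP1 KO and 5.53 against 8.52 in YKTH mice. *Cdx1* was listed at 0 in every liver, and *Cdx2* was at 0.0563 TPM or below. *Cdh17* averaged 0.542 against 0.166 TPM and 0.28 against 0.00773, and *Vil1* 0.692 against 0.475 and 0.681 against 0.105. *Cdh17* and *Vil1* were too low to be tested, and the part of intestinal cells in the *Apoa4* level was not tested. Antisense genes *Gm47528* and *Gm10680* overlap *Apoa4*, and whether reads were counted by strand is not given in the sources used here.

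*Apoc2* encodes the cofactor that lipoprotein lipase needs. Its levels were 766, 689 and 854 TPM in YAP1 KO livers against 267, 249 and 252 in WT (C57BL/6) livers. They were 776, 1182 and 1011 TPM in YKTH livers against 258, 321 and 587 in WT (mixed) livers. Groups did not overlap, but WT mouse LM230 lay well above both other WT (mixed) mice. The log2 fold change was 1.22 (SE 0.12, limma adjusted p = 0.000188) in YAP1 KO and 1.09 (SE 0.32, adjusted p = 0.0294) in YKTH mice. In YAP1 KO mice the call held in all 15 alternatives. In YKTH mice it held in 10 of 15, and in 2 of the 6 fits with 1 mouse left out: it was lost without WT mouse LM226 (0.80, adjusted p = 0.0868), LM227 (1.01, 0.0834), YKTH mouse LM250 (0.94, 0.0984) or LM251 (1.03, 0.0919). The left-out values ran from 0.80 to 1.46. LM230 also differed from its group by transcript length, with a median log2 difference of 0.13 over 420 genes of up to 1000 bases and -0.17 over 3735 genes longer than 4000 bases, and the longest *Apoc2* transcript has 727 bases. Other livers differed as much: WT mouse LM226 was at -0.07 and 0.18, and YKTH mouse LM225, the lowest of its group for *Apoc2* and *Apoa2*, at -0.13 and 0.17. The part of that in these levels was not tested.

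*Apoc3* encodes the inhibitor of lipoprotein lipase and of remnant uptake, and it moved opposite to *Apoc2*. Its levels were 2243, 2016 and 2320 TPM in YAP1 KO livers against 4077, 3387 and 3454 in WT livers. They were 2457, 2667 and 2959 TPM in YKTH livers against 3322, 3216 and 3719 in WT livers. All knockout livers lay below all of their WT livers. The log2 fold change was -1.09 (SE 0.14, limma adjusted p = 0.000633) and -0.67 (SE 0.16, adjusted p = 0.0114). The call was lost in YKTH mice without scaling (-0.35, adjusted p = 0.0554) and with quantile normalization (-0.26, adjusted p = 0.187).

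*Apoa2*, the second most abundant protein of HDL, showed the largest fall of the 10 in both models. Its levels were 10397, 9973 and 9500 TPM in YAP1 KO livers against 20039, 18578 and 20989 in WT livers. They were 11356, 17204 and 15610 TPM in YKTH livers against 19867, 21309 and 24605 in WT livers. The YAP1 KO mice lay close together at about the level of *Apoa1*, whereas YKTH mouse LM225 lay below the other YKTH mice, and groups did not overlap in either model. The log2 fold change was -1.36 (SE 0.14, limma adjusted p = 0.00024) and -0.91 (SE 0.24, adjusted p = 0.0172). In YKTH mice the call was lost when no filter on low values was applied (-0.91, adjusted p = 0.136) or without WT mouse LM230 (-0.80, adjusted p = 0.0649).

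*Apoa1*, the main protein of HDL, was not called in either model. Its levels were 10662, 10523 and 11556 TPM in YAP1 KO livers against 9590, 9467 and 7311 in WT livers, and these groups did not overlap. They were 9410, 10934 and 10978 TPM in YKTH livers against 5778, 6387 and 10095 in WT livers, where LM230 again lay above both other WT mice and inside the YKTH range. Relative to the bulk of genes, the log2 fold change was -0.04 (SE 0.16, limma adjusted p = 0.867) in YAP1 KO and 0.21 (SE 0.25, adjusted p = 0.548) in YKTH mice. The sign in YAP1 KO mice turned without scaling (0.32, adjusted p = 0.0826). Hence *Apoa1* and *Apoa2* differed: the ratio of their TPM within a liver, which no scaling changes, was 1.10 ± 0.10 (SD, n = 3) in YAP1 KO against 0.445 ± 0.086 in WT livers, and 0.722 ± 0.098 in YKTH against 0.334 ± 0.067 in WT livers. The ratios did not overlap in either model (exact two-sided permutation test p = 0.1 in each, the smallest that 3 mice against 3 allow).

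*Lipc* fell by 0.72 (SE 0.12, limma adjusted p = 0.00288) in YAP1 KO and by 0.77 (SE 0.09, adjusted p = 0.000514) in YKTH mice on the log2 scale. Its levels were 140, 121 and 129 TPM in YAP1 KO livers against 184, 146 and 174 in WT livers. They were 126, 121 and 112 TPM in YKTH livers against 173, 171 and 149 in WT livers. The groups did not overlap in either model, and *Lipc* remained called in all 15 alternatives in each. In TPM without scaling the ratio of means was 0.777 and 0.728.

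*Mttp* was not called in YAP1 KO mice (-0.16, SE 0.16, limma adjusted p = 0.462) and was called lower in YKTH mice (-0.31, SE 0.10, adjusted p = 0.043). Its levels were 130, 156 and 150 TPM in YAP1 KO livers against 111, 119 and 153 in WT livers. They were 153, 138 and 126 TPM in YKTH livers against 141, 147 and 125 in WT livers, so that the TPM of the groups overlapped with a ratio of means of 1.01. The YKTH call is thus a position below the bulk of genes and not a lower TPM. It held in 3 of 15 alternatives and in none of the 6 fits with 1 mouse left out (-0.34 to -0.25, limma adjusted p from 0.0527 to 0.158), and without scaling the value was 0.01 (adjusted p = 0.933).

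*Apob* was not called in either model. Its levels were 680, 646 and 691 TPM in YAP1 KO livers against 476, 494 and 553 in WT livers, which did not overlap. They were 821, 678 and 640 TPM in YKTH livers against 646, 632 and 508 in WT livers, with LM230 the lowest of its group. The scaled log2 fold change was 0.04 (SE 0.11, limma adjusted p = 0.773) and -0.06 (SE 0.12, adjusted p = 0.722). In YAP1 KO mice it was called higher by limma without scaling (0.41, adjusted p = 0.0077) and with quantile normalization (0.38, adjusted p = 0.0193). It was also called higher with the major urinary protein genes removed (0.34, limma adjusted p = 0.0148), a setting that was likewise not centred. Within a liver, the ratio of *Apob* to *Mttp* was 4.65 ± 0.54 in YAP1 KO against 4.02 ± 0.35 in WT livers, which overlapped, and 5.12 ± 0.24 in YKTH against 4.32 ± 0.27 in WT livers, which did not (SD, n = 3, exact two-sided permutation test p = 0.3 and p = 0.1).

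*Apoe* had the highest mean level of the 10 in each group but WT (mixed), where *Apoa2* came first and the 2 genes overlapped. Its levels were 18952, 22001 and 23534 TPM in YAP1 KO livers against 20019, 21974 and 21999 in WT livers. They were 22165, 21966 and 20391 TPM in YKTH livers against 19581, 21580 and 21270 in WT livers. Groups overlapped in both models, and the scaled log2 fold change was -0.36 (SE 0.17, limma adjusted p = 0.141) and -0.27 (SE 0.17, adjusted p = 0.247). Without scaling it was 0.01 in YAP1 KO and 0.05 in YKTH mice. Macrophages also express *Apoe*, and the macrophage marker sums given above were higher in both models.

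*Apoa5* encodes a scarce plasma protein that promotes the lipolysis of triglycerides. Its levels were 786, 921 and 1079 TPM in YAP1 KO livers against 897, 1056 and 1031 in WT livers. They were 1349, 910 and 786 TPM in YKTH livers against 948, 934 and 986 in WT livers. The WT mice lay inside the range of the YKTH mice, whose spread LM225 widened. The log2 fold change was -0.47 (SE 0.16, limma adjusted p = 0.053) in YAP1 KO and -0.27 (SE 0.17, adjusted p = 0.244) in YKTH mice. *Apoa5* passed the threshold in 3 of 15 alternatives in YAP1 KO mice, with adjusted p over the 15 from 0.0303 to 0.993, and in YKTH mice only without LM225 (-0.46, adjusted p = 0.0266).

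**Figure D2:**
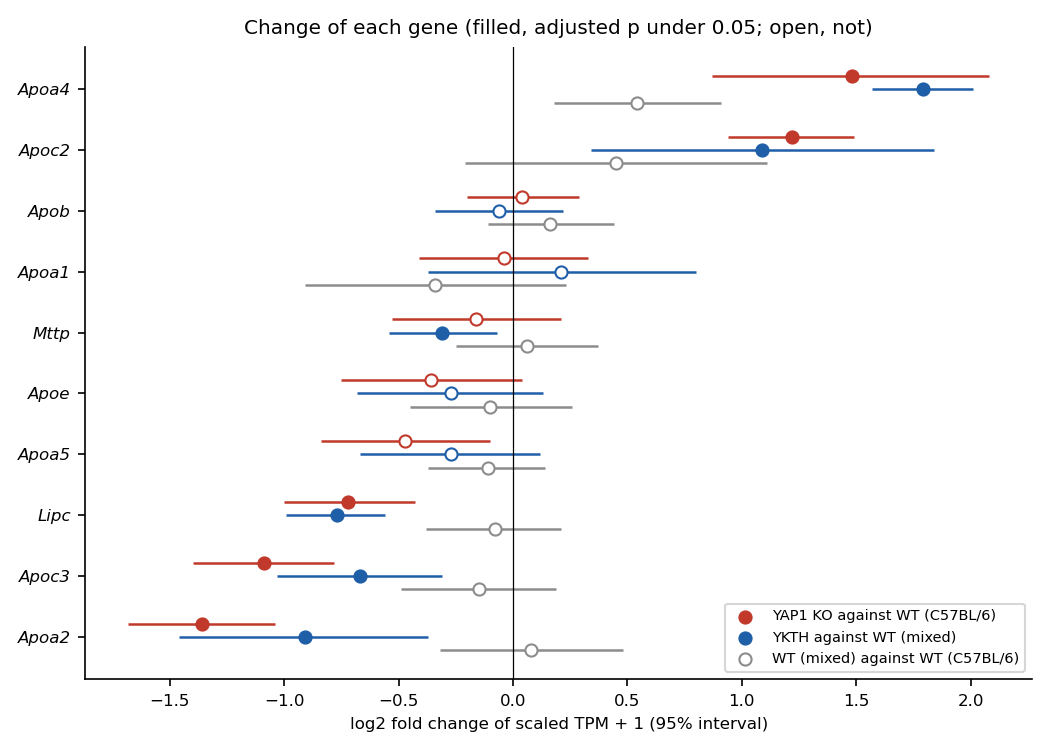
Scaled log2 fold change (horizontal axis) of each gene with its 95% interval, for YAP1 KO (red), YKTH (blue) and the WT groups (grey). Filled points passed an adjusted p under 0.05, and no grey point is filled.

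The order of the levels changed with these shifts. In WT (C57BL/6) livers, mean TPM fell in the order *Apoe* (21331), *Apoa2* (19869), *Apoa1* (8789), *Apoc3* (3639), *Apoa5* (995), *Apob* (508), *Apoc2* (256), *Lipc* (168), *Apoa4* (133) and *Mttp* (128). *Apoe* overlapped with *Apoa2*, and *Lipc*, *Apoa4* and *Mttp* overlapped with their neighbours in that order. In YAP1 KO livers *Apoa1* (10914) stood above *Apoa2* (9957) without overlap, and the neighbours *Apoa5* (929), *Apoc2* (769), *Apob* (672) and *Apoa4* (489) overlapped one with the next. In YKTH livers *Apoa2* (14723) stayed above *Apoa1* (10441), while *Apoc2* (989) and *Apoa4* (865) stood above *Apob* (713). *Lipc* was the lowest of the 10 in both models (130 and 120 TPM), where *Mttp* (145 and 139) overlapped with it. In WT (mixed) livers *Mttp* (138) was the lowest, without overlap with *Lipc* (164).

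Ratios within a liver show the opposite movement of the cofactor and the inhibitor of lipoprotein lipase. The TPM of *Apoc2* divided by that of *Apoc3* was 0.341, 0.342 and 0.368 in YAP1 KO livers against 0.0654, 0.0736 and 0.0731 in WT livers. It was 0.316, 0.443 and 0.342 in YKTH livers against 0.0778, 0.0999 and 0.158 in WT livers. The ratio of the group means was 4.96 and 3.28, without overlap (exact two-sided permutation test p = 0.1 in each, the floor for 3 against 3), and the WT groups did not overlap with each other either. *Apoa4* divided by *Apoa1* was 0.0443 ± 0.0131 in YAP1 KO against 0.0150 ± 0.0011 in WT livers, and 0.0835 ± 0.0118 in YKTH against 0.0285 ± 0.0080 in WT livers (SD, n = 3), again without overlap in either model (exact permutation p = 0.1 in each). The WT groups did not overlap with each other in that ratio either.

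**Figure D3:**
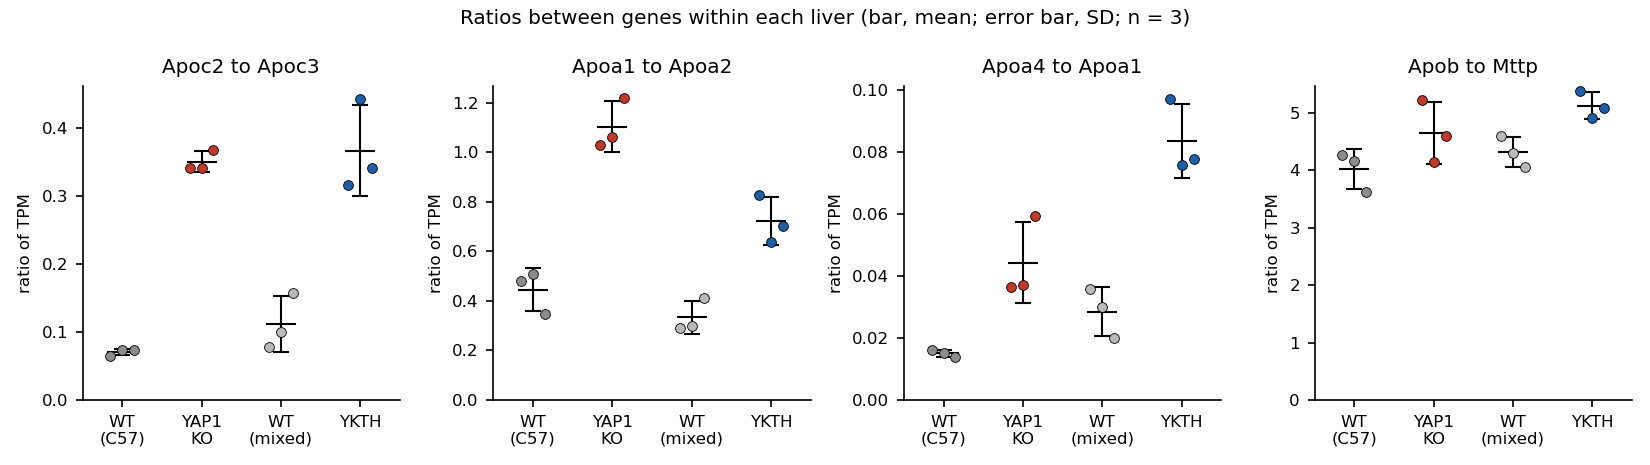
Ratios of TPM between gene pairs within each liver (vertical axes, from 0). Points are mice, the short bar is the mean of 3 and the error bar the SD. The *Apoc2* to *Apoc3* ratio lies between 0.316 and 0.443 in all 6 knockout livers and at 0.158 or below in all 6 WT livers.

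Summed over the 10 genes, the level was 45147, 47436 and 50500 TPM in YAP1 KO livers against 55814, 55615 and 56017 in WT livers. It was 49526, 56627 and 53467 TPM in YKTH livers against 50920, 54889 and 62246 in WT livers. The sum was lower without overlap in YAP1 KO livers (exact two-sided permutation test p = 0.1, the floor) and overlapped in YKTH livers (p = 0.6). *Apoe*, *Apoa1* and *Apoa2* carry most of this sum. Major urinary protein genes, which took 4.49% and 4.04% of TPM in the WT groups, took 0.198% in YAP1 KO and 0.0224% in YKTH livers. Without those genes the 10 took 4.78% against 5.84% in YAP1 KO and 5.32% against 5.84% in YKTH mice.

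The clustered genes moved separately. On chromosome 9 (GRCm38), *Apoa1* (46228580 to 46230466, plus strand), *Apoc3* (46232933 to 46235636, minus strand), *Apoa4* (46240696 to 46243459, plus strand) and *Apoa5* (46268633 to 46271919, plus strand) lie side by side. *Apoa4* rose and *Apoc3* fell although their starts are 5060 bases apart, and *Apoa1* and *Apoa5* were not called. On chromosome 7, *Apoc2* (19671579 to 19677941), *Apoc4* (19678083 to 19681479), *Apoc1* (19689481 to 19692660) and *Apoe* (19696109 to 19699188) all lie on the minus strand. *Apoc2* rose while *Apoc4* (-0.73, limma adjusted p = 0.00434, and -0.44, adjusted p = 0.032) and *Apoc1* (-0.70, adjusted p = 0.00419, and -0.52, adjusted p = 0.0342) fell in YAP1 KO and YKTH mice. Of the fits of YKTH mice with 1 mouse left out, *Apoc1* lost its call without LM227, LM230, LM225, LM250 or LM251 in turn (-0.59 to -0.41), and *Apoc4* without the same mice (-0.49 to -0.39). Without scaling, the YKTH calls of *Apoc1* (-0.19, limma adjusted p = 0.271) and *Apoc4* (-0.12, adjusted p = 0.4) were lost as well. They were also lost with quantile normalization (-0.20 and 0.05). The same held with the major urinary protein genes removed (-0.25 and -0.18), a setting that was also not centred.

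*Gm44805* (19671584 to 19681423, minus strand), which was chosen after its values were seen, spans *Apoc2* and most of *Apoc4*, so reads of these genes may have been split between them. It was lower in YAP1 KO (-0.77, limma adjusted p = 0.0349) and YKTH mice (-0.51, adjusted p = 0.0319), opposite to *Apoc2*, with means of 55.7 TPM against 74.6 and 71.6 against 81.5. The YAP1 KO call was lost without LM75, LM193, LM74 or LM191 (-0.78 to -0.56) and the YKTH call without LM226, LM230, LM225 or LM251 (-0.51 to -0.43), each left out in turn. The remaining genes lie apart: *Apoa2* at 171225054 to 171226379 on chromosome 1 (plus), *Apob* at 7977648 to 8016835 on chromosome 12 (plus), *Mttp* at 138089854 to 138144968 on chromosome 3 (minus) and *Lipc* at 70798128 to 70952226 on chromosome 9 (minus). Within 100 kb of the 10 genes lie 53 other genes, of which 29 were tested in both models. Of these 29, 6 were higher and 10 lower in YAP1 KO, and 6 were higher and 9 lower in YKTH livers. Over all genes tested, 18.8% were higher and 18.0% lower in YAP1 KO, and 19.2% higher and 19.0% lower in YKTH livers.

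**Figure D4:**
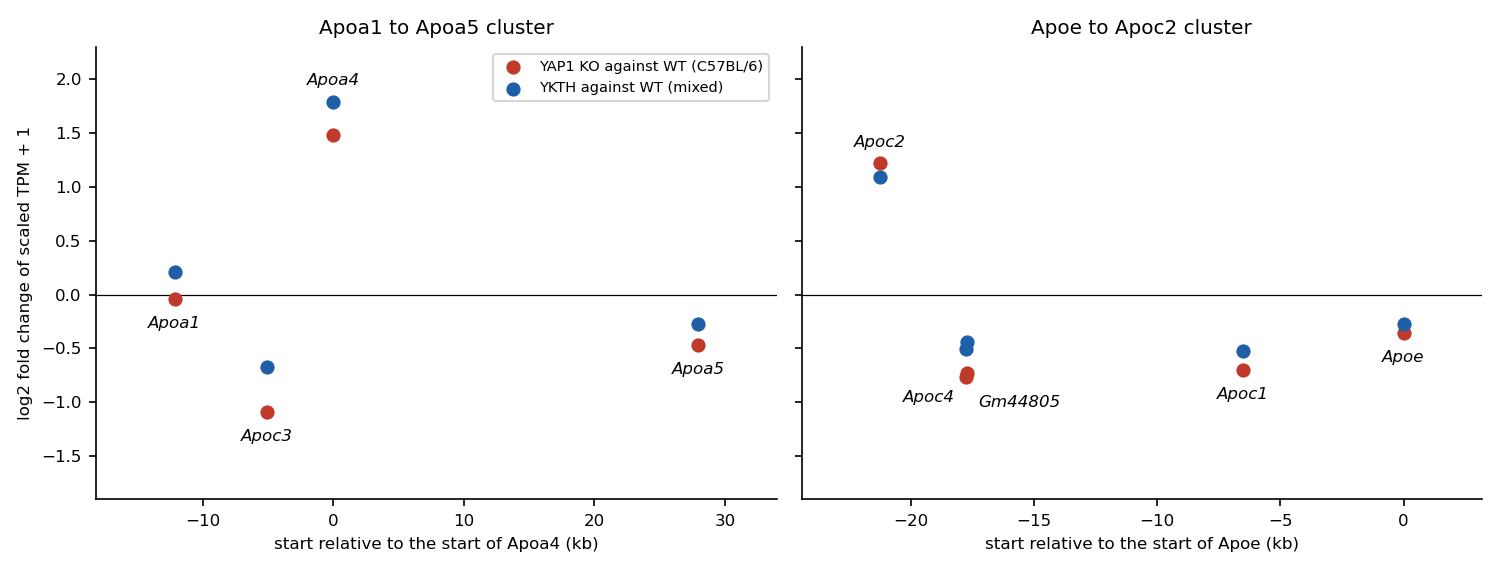
Scaled log2 fold change (vertical axis) of the genes of both clusters against the distance of their starts from that of *Apoa4* or *Apoe* in kb (horizontal axes), for YAP1 KO (red) and YKTH (blue). *Apoa4* and *Apoc2* lie above 1 while *Apoc3*, *Apoc4* and *Apoc1* lie below 0.

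The WT groups were compared to see how far background and cohort move the same genes. None of the 10 was called between WT (mixed) and WT (C57BL/6) livers by limma, where 0.216% of all genes were, and 1 had an unadjusted p under 0.05. That gene was *Apoa4*, 0.54 higher in WT (mixed) livers on the log2 scale (SE 0.16, unadjusted p = 0.00881, limma adjusted p = 0.596), with TPM that did not overlap, and 0.36 without LM193. *Apoc2* was at 0.45 (SE 0.29, adjusted p = 0.954), and at 0.08 without LM230 and 0.74 without LM226. *Apoa1* was at -0.34 (SE 0.25, adjusted p = 0.961).

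The difference between the models, each against its own WT mice, was tested over all 12 livers. None of the 10 was called by limma, where 0.0658% of all genes were, and 0 had an unadjusted p under 0.05. *Apoa2* differed by -0.45 (95% interval -1.06 to 0.16) and *Apoc3* by -0.43 (-0.88 to 0.03), YAP1 KO minus YKTH. *Apoa4* differed by -0.32 (-0.99 to 0.35) and *Apoc2* by 0.12 (-0.73 to 0.97). Adjusted p was 0.999 for each of the 10, and intervals of this width leave room for differences as large as several of the changes themselves.

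Other genes of the pathway were taken from lists. The counts for each list below stand beside 18.8% of all tested genes higher and 18.0% lower in YAP1 KO livers. In YKTH livers those shares were 19.2% and 19.0%, and no list was tested as a set. Of 14 tested genes of other apolipoproteins, 3 were higher and 9 lower in YAP1 KO, and 4 were higher and 9 lower in YKTH livers. That list also held *Apobr*, which encodes a receptor and not an apolipoprotein. Its mean level was low, from 0.875 to 2.14 TPM in YAP1 KO and from 1.05 to 3.29 TPM in YKTH mice. *Clu*, which encodes clusterin (apoJ), rose by 2.29 (limma adjusted p = 6.33e-06) and 2.19 (adjusted p = 1.68e-05), from 921 to 5843 and from 944 to 5374 mean TPM. *Saa1* (2.65 and 2.70) and *Saa2* (2.81 and 3.51), near-identical acute phase genes whose reads may be split between them, also rose. *Apom*, an HDL protein that carries sphingosine 1-phosphate, fell by 1.16 and 0.87.

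Among 21 genes of VLDL assembly and secretion, 1 was higher and 8 lower in YAP1 KO, and 1 was higher and 10 lower in YKTH livers. *Dgat2*, which makes triglyceride, fell by 1.51 (limma adjusted p = 0.000472) and 1.58 (adjusted p = 0.000381). *Ces1d*, a lipase that mobilises stored triglyceride for VLDL, was at -2.02 and -2.39, from 1116 to 347 and from 1084 to 258 mean TPM. *Tm6sf2*, needed to lipidate VLDL, was not called (-0.06 and 0.07), and without scaling it was at 0.30 and, called higher, at 0.39. *Apobec1*, the enzyme that edits *Apob* mRNA, rose by 1.46 (limma adjusted p = 0.000324) and 1.70 (adjusted p = 0.000203), from 7.61 to 29.1 and from 6.32 to 28.2 mean TPM. Editing itself was not measured.

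Of 12 plasma lipases and their modulators, 2 were higher and 6 lower in YAP1 KO, and 2 were higher and 7 lower in YKTH livers. *Lpl*, which encodes the lipoprotein lipase that apoC2 activates and apoC3 restrains, rose by 4.40 (SE 0.18) and 4.29 (SE 0.31), from 5.93 ± 0.60 to 189 ± 58.1 and from 7.50 ± 3.11 to 198 ± 55.8 TPM (SD, n = 3). Macrophages also express *Lpl*. *Lipg*, endothelial lipase, fell by 1.65 and 2.53, and *Lcat*, which esterifies the cholesterol of HDL, fell by 0.65 and 0.47. *Angptl4*, an inhibitor of lipoprotein lipase, fell by 1.26 (limma adjusted p = 0.046) and 1.24 (adjusted p = 0.034) with groups that overlapped. It lost its call without LM75, LM193, LM74 or LM191 in YAP1 KO (-1.36 to -0.84) and without LM227, LM230, LM250 or LM251 in YKTH mice (-1.38 to -0.81), and the YKTH call of *Lcat* was lost without LM227, LM230 or LM250 (-0.44 to -0.42) and without scaling (-0.14).

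Of 14 tested receptor and clearance genes, 5 were higher and 3 lower in YAP1 KO, and 4 were higher and 5 lower in YKTH livers. *Scarb1*, the HDL receptor, rose by 0.65 and 0.48, where the YKTH call was lost without LM226, LM230, LM250 or LM251 (0.38 to 0.49). Of 5 genes of HDL lipidation, 3 were higher and 1 lower in YAP1 KO, and 2 were higher and 1 lower in YKTH livers, and *Abca1*, which loads apoA1 with lipid, was at 0.00 and -0.06 and not called. With 1 mouse left out, the YKTH counts ran from 1 to 3 higher and 0 to 1 lower for HDL lipidation, and from 2 to 4 higher for receptors.

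Of 25 tested transcription factors of apolipoprotein genes, 1 was higher and 12 lower in YAP1 KO, and 1 was higher and 13 lower in YKTH livers. *Hnf4a*, a regulator of most of the 10 genes, was not called (-0.07, SE 0.15, and -0.11, SE 0.14), and its values were 0.29 and 0.21 without scaling. *Ppara*, which lowers *Apoc3* when activated, fell by 1.55 (limma adjusted p = 9.64e-05) and 1.88 (adjusted p = 0.0027). *Nr1h4*, the bile acid receptor FXR, fell by 1.10 and 1.11. Its target *Nr0b2* was at -0.54 (limma adjusted p = 0.0706) and -0.88 (adjusted p = 0.00115), and *Creb3l3*, an activator of *Apoa4* and *Apoc2*, was at -0.52 (adjusted p = 0.0257) and -0.66 (adjusted p = 0.0123). *Nr0b2* was called in YAP1 KO mice without LM75 (-0.68) or LM191 (-0.70). *Creb3l3* lost its calls without LM192 (-0.52) or LM193 (-0.44) in YAP1 KO, without LM251 (-0.53) in YKTH mice, and without scaling in both (-0.16 and -0.33).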

How the data were processed

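RNA was isolated from flash frozen whole liver with Trizol and RNeasy columns and sequenced by Novogene. The authors used CLC Genomics Workbench to align reads to GRCm38.p6, and deposited TPM for every gene and mouse, with 1 table per model. Strand use in counting is not given in the sources used here. The submitters' processing notes name edgeR and GRCm38. The tables also hold fold changes, p-values and false discovery rates from comparisons by the authors, which were not used. All TPM columns were matched to a sample (0 unmatched), and no pair of libraries held identical values (0). Every library sums to 1000000 TPM, so the reads counted per library cannot be recovered. The error used is the spread between 3 mice, and limma draws the variance of each gene toward a trend over all genes.

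TPM were divided by an unweighted trimmed mean of log ratios (from each end, 30% of the ratios and 5% of the mean levels were dropped) and log2(TPM + 1) was tested with limma 3.58.1 in R 4.3.3 (eBayes with a trend), two-sided, for genes that reached 1 TPM in 3 or more of the libraries fitted, with Benjamini-Hochberg adjustment over all genes and a threshold of 0.05. A fit held the 6 libraries it compared, or all 12 for the contrast of both models. The fit was also run on simulated data with independent noise for each gene and few genes changed. Many genes were called in these livers, so that run does not check the centring. For single values the test was an exact permutation test, two-sided (scipy 1.17.1), for which 0.1 is the smallest p. Gene positions matched GENCODE M21, and promoters came from RefSeq on GRCm38.p6. *Tf*, on the hepatocyte list, was not analysed here.

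The 10 genes and all lists were chosen with earlier results of these data known. Every one of the 10 was named, with further genes fixed by name (some of which are not reported here), at most 4 of the called genes with the largest change from each list and model, and *Yap1* and *Wwtr1* as a check of the labels. The alternatives were quantile normalization, no scaling or median-of-ratios scaling, a pseudocount of 0.1, and a filter at 5 TPM or none. Others were removal of the 22 major urinary protein genes, robust variance shrinkage, 1 fit of all 12 libraries, and each mouse left out in turn. With the major urinary protein genes removed, TPM were set to the same total again but not centred. The median of all tested genes then lay at 0.22 in YAP1 KO and 0.19 in YKTH mice.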

Additional observations from a re-analysis of the deposited data

How the results depend on the processing

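In YAP1 KO mice, *Apoa2*, *Apoa4*, *Apoc2*, *Apoc3* and *Lipc* remained called in all 15 alternatives, as did *Apoa4* and *Lipc* in YKTH mice. The number of the 10 genes called lower in YKTH mice was 4, and it was 2 without scaling and 2 with quantile normalization, which moved *Apoc3* and *Mttp* across the threshold. It ranged from 2 to 4 with 1 mouse left out, but *Mttp* was called in none of those 6 fits. Without LM225, *Apoa5* was called lower in its place (-0.46, limma adjusted p = 0.0266). The number called higher was 2, and it was 1 without a filter on low values and ranged from 1 to 2 with 1 mouse left out. The counts in YAP1 KO mice stayed within 1.5 times, and the counts of 0 between the WT groups and between the models stayed at 0.

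Without scaling, values that turned their direction in YAP1 KO mice were *Apoa1* at 0.32, *Apoe* at 0.01, *Mttp* at 0.20, *Hnf4a* at 0.29 and *Tm6sf2* at 0.30. Those in YKTH mice were *Apoa5* at 0.05, *Apob* at 0.26, *Apoe* at 0.05, *Mttp* at 0.01, *Abca1* at 0.26 and *Hnf4a* at 0.21. With quantile normalization they were *Apoa1* at 0.21, *Apoa5* at 0.00, *Mttp* at 0.07, *Hnf4a* at 0.25 and *Tm6sf2* at 0.10 in YAP1 KO mice. In YKTH mice they were *Apoa5* at 0.25, *Apob* at 0.37, *Apoe* at 0.08, *Apoc4* at 0.05, *Abca1* at 0.05 and *Hnf4a* at 0.25. With the major urinary protein genes removed, also without centring, they were *Apoa1* at 0.26, *Mttp* at 0.13, *Hnf4a* at 0.23 and *Tm6sf2* at 0.23 in YAP1 KO mice. In YKTH mice, that setting turned *Apob* to 0.20, *Abca1* to 0.20 and *Hnf4a* to 0.15. *Abca1* in YAP1 KO mice was at -0.00 with all 12 libraries in 1 fit. Of these, *Apoc4* and *Mttp* in YKTH mice had been called in the main setting, and *Abca1*, *Apoa1*, *Apoa5*, *Apob*, *Apoe* and *Hnf4a* had not.

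With 1 mouse left out, the value in YAP1 KO mice ranged from -0.17 to 0.06 for *Apoa1*, from -0.12 to 0.09 for *Abca1*, from -0.18 to 0.05 for *Hnf4a* and from -0.16 to 0.07 for *Tm6sf2*. In YKTH mice it ranged from -0.16 to 0.03 for *Abca1* and from -0.01 to 0.13 for *Tm6sf2*. For the difference between the models it ranged from -0.25 to 0.41 for *Apoc2*.

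Counts of called genes over the lists moved with the scaling. Over all alternatives, genes of VLDL assembly called lower ranged from 3 to 8 in YAP1 KO and from 5 to 10 in YKTH mice, and those called higher from 0 to 5 and from 1 to 7. Transcription factors called lower ranged from 7 to 14 and from 6 to 14, and lipases called lower from 2 to 6 and from 2 to 7. Receptor and clearance genes called lower ranged from 1 to 4 and from 0 to 5, and hepatocyte markers called higher from 0 to 3 in each model and called lower from 3 to 4 and from 1 to 4. Over all genes, 4486 were called in YKTH mice and 2833 without LM251. Between the WT groups 24 were called, against 15 without a filter and 8 to 28 with 1 mouse left out. Between the models 8 were called, against 2 without a filter, 3 with pseudocount 0.1, 4 without the major urinary protein genes, 20 without LM74, 15 without LM225 and 3 to 20 over all mice left out in turn. The cause of these shifts was not tested. No analysis paired by litter was possible because the sample labels do not give the litter of each mouse. With 3 mice in a group and no counts, differences as large as the intervals given cannot be resolved.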
